A study of Mus musculus with 2 samples.

Results

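Ccr2-positive class II high cells, labelled macrophages, were a small set recovered from the mouse peritoneal cavity. They were 83 of 6360 barcodes kept in the Ankrd22 knockout (KO) library and 69 of 6259 in the wild type (WT) library. In all they were 152 of 12619. A barcode was a member when the UMIs (unique molecular identifiers, the counted RNA molecules) of H2-Aa, H2-Ab1, H2-Eb1 and Cd74 summed to 10 or more per 10000, when it held 2 or more UMIs of Ccr2, at most 1 UMI of Folr2 and Lyve1 together, and under 3 UMIs of Cd79a, Cd79b and Ms4a1 together. The shares were 1.31% in KO (exact 95% interval 1.04 to 1.62%) and 1.10% in WT (0.859 to 1.39%), and these intervals overlapped. The values of those 10 genes chose the members, so their levels are given below as a description. The set they were compared with was the class II low cells of the same library, in which the class II sum was under 5 UMIs per 10000, 5540 cells in KO and 4843 in WT. Both groups were cut from the same cells by measured values, so no difference between them was tested.

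The KO library came from Ankrd22-/- mice, whose deletion of Ankrd22, a gene for an ankyrin repeat protein, had been made by CRISPR/Cas9, and the WT library from Ankrd22+/+ mice. In both, peritoneal cells carrying the surface antigen F4/80 had been collected by flow sorting and put through droplet capture with 3' tagging (10x v3 chemistry). The labels gave no strain, age, sex or number of animals behind either library. Each genotype had 1 library, so no difference between KO and WT has a replicate check, genotype cannot be told apart from the library, and every interval below covers counting error only. Ankrd22 itself had 0 UMIs in both libraries, so its transcript did not check the genotypes.

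The KO library held 110956482 UMIs and the WT library 96869041. Member cells had a median of 16643 UMIs in KO and 17059 in WT, and class II low cells 16256 in KO and 14568 in WT, and the mitochondrial share of UMIs had a median of 1.27% in KO and 0.644% in WT members and 1.497% and 0.690% in KO and WT class II low cells. Summed over cells, the members gave 1650701 UMIs in KO and 1208648 in WT. Of the barcode sequences, 15 occurred in both libraries, and 0 KO and 1 WT member carried one. No doublet had been removed by the rule: 3 KO and 1 WT members were among the barcodes with the highest Scrublet scores, and 3 KO members had over 60000 UMIs.

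CCR2 is the receptor for the chemokine CCL2, and monocytes need it to leave the bone marrow and enter tissue. MHC class II molecules display peptides to CD4 T cells, and their transcription depends on the coactivator CIITA, which is recruited to promoters by factors bound at the X and Y boxes. The peritoneal cavity of mice holds large macrophages, which are long-lived, depend on the transcription factor GATA6 and are poor in class II, and small macrophages, which are rich in class II and CCR2 and are replenished from monocytes. Prg4 (lubricin), Icam2 and Timd4 are transcripts of the large cells, and Cd226, Retnla, Mrc1 and Fcrls have been used for the small ones.

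Promoters of class II genes are shown because class II transcripts defined the set and differed within it, and because these promoters carry the element through which CIITA acts. RefSeq promoters (GRCm38.p6) were found for 13 of 18 class II genes and genes of the class II machinery. Each stretch runs 5′ to 3′ along the strand of its gene, with the Y box core GATTGG in capitals.
H2-Aa, chr17:34287843-34287922, minus strand: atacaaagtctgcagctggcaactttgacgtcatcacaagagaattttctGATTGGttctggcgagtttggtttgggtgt
H2-Eb1, chr17:34305757-34305836, plus strand: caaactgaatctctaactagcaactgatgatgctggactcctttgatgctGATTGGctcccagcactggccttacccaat
H2-DMb1, chr17:34153079-34153158, plus strand: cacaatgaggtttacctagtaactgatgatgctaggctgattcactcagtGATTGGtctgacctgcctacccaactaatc
The letters GATTGG were present on either strand within 250 bases upstream of the start in at least 1 promoter in 8 of 8 genes of the H2 family that had one, in 2 of 5 other genes looked up, and in 14.6% of the 32851 promoters in the table. TGATGATG, letters that occur in the X box region, was found on either strand in 2 of those 8 genes, H2-Eb1 and H2-DMb1, and in 1.24% of all promoters. These matches are a description of the letters and no evidence of binding.

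The chosen transcripts spanned a wide range within the set. The class II sum was lowest at 10.7, had a median of 88.4 and was highest at 750 UMIs per 10000 in KO members, against 10.3, 54.6 and 425 in WT members. Ccr2 ran between 2 and 53 UMIs per cell with a median of 9 in KO, against 2 and 18 with a median of 5 in WT, and 27 KO members but 0 WT members had 20 or more. With 0 of 69 WT cells, a share of up to 4.35% is allowed by counting alone. Summed over cells, H2-Aa had 2189 CPM (UMIs scaled to a common total) in KO members and 1233 in WT members, H2-Ab1 1696 in KO and 1081 in WT, H2-Eb1 1730 in KO and 726 in WT, and Cd74, the invariant chain, 6179 in KO and 3775 in WT. All 4 were higher in KO members.

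Of the limits of the rule, the one on Ccr2 had the most cells beside it. Between 10 and 12 class II UMIs per 10000 there were 2 KO and 3 WT members, and between 8 and 10, outside the limit, 4 KO and 0 WT cells that met the other conditions. Exactly 2 Ccr2 UMIs were counted in 9 KO and 13 WT members, while 18 KO and 37 WT cells outside had exactly 1. Just inside the Folr2 and Lyve1 limit were 13 KO and 17 WT members with 1 UMI, and outside it 5 KO and 8 WT cells with 2. At the B cell limit, 12 KO and 6 WT members had 1 or 2 UMIs, and 2 KO and 0 WT cells outside had 3 or 4.

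Macrophage markers were present in the set as a whole. Adgre1, the F4/80 gene, had a UMI in 80 of 83 KO and 67 of 69 WT members and 357 CPM in KO members and 367 in WT members, and Csf1r, the receptor for macrophage colony-stimulating factor, 440 in KO and 357 in WT. C1qa, a complement subunit made by macrophages, had 2072 CPM in KO members and 3750 in WT members. With each cell thinned to 2000 UMIs, Adgre1 was seen in 42.2% of KO members, against 28.3% of KO barcodes with B cell transcripts, and in 48.5% of WT members, against 12.5% of such WT barcodes. The 3 C1q genes summed to 2.24, 63.2 and 201 UMIs per 10000 (lowest, median, highest) in KO members and to 3.98, 119 and 225 in WT members, with 6 KO and 1 WT members under 10. Those 6 KO members had no Retnla UMI, under 10 Prg4 UMIs per 10000 and class II sums of 96.3 to 750 UMIs per 10000. Among them, 1 held 13 UMIs of Flt3, Zbtb46 and Cd209a together. The 1 WT member had no Retnla UMI but 36.5 Prg4 UMIs per 10000. A macrophage identity of these cells was not tested. Several defining transcripts of conventional dendritic cells were near 0: Flt3 had 3.63 CPM in KO and 0 UMIs in WT, Zbtb46 0.606 CPM in KO and 0 UMIs in WT, and Xcr1, Clec9a, Ccl22 and Epcam 0 UMIs in both. Summed, the 17 genes of that list stood at 0, 3.32 and 40.6 UMIs per 10000 (lowest, median, highest) in KO members and at 0, 1.46 and 5.86 in WT members, with medians of 1.19 in KO and 1.01 in WT class II low cells. In 2 KO members and 0 WT members, Flt3, Zbtb46 and Cd209a summed to 5 or more UMIs. Other genes of the dendritic list were present, such as the transcription factor Batf3, at 76.9 CPM in KO members and 21.5 in WT members. Of the 17 genes, 7 in KO and 6 in WT reached a mean of 5 CPM over members and class II low cells, and 5 in KO and 2 in WT were at least 1.5-fold higher in members (18.0% and 16.1% of all genes) and 1 in KO and 2 in WT lower (6.17% and 5.63%). Between genotypes, 5 of 6 were 1.5-fold higher in KO members and 0 lower, at a median log2 ratio of 1.21 (1 added to each CPM), beside 22.3% higher and 8.37% lower over all genes. The part of dendritic transcripts in the other differences between KO and WT members was not tested. Values without cells holding Flt3, Zbtb46 or Cd209a are given below, and leave out only 4 KO and 3 WT members. The lists for mast cells, eosinophils and mesothelial or stromal cells had no UMI in over 98% of members of either library: 1.20% of KO and 0% of WT members had a UMI of the mast cell list, likewise 1.20% and 0% for the eosinophil list, and 0% of both for the mesothelial and stromal list. The classical monocyte list summed to 0, 3.37 and 123 UMIs per 10000 (lowest, median, highest) in KO members and to 0, 5.78 and 20.5 in WT members, against medians of 5.20 in KO and 4.02 in WT class II low cells, and the neutrophil list to 0, 0.429 and 3.63 in KO and 0, 0.508 and 3.805 in WT members. Any T or NK cell transcript was seen in 3.61% of KO and 1.45% of WT members, and a B cell transcript in 31.3% of KO and 10.1% of WT members, at a median of 0 UMIs per 10000 in both. Among B cell genes, Ighm had a UMI in 13 KO and 0 WT members, while Ms4a1 and Pax5 had 0 UMIs in members of both libraries. Ly6c2, of classical monocytes, was listed at 0 UMIs in members of both libraries, but its reads may be lost to the near-identical Ly6c1, so this is uncertain.

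The large macrophage transcript Prg4 was low in more of the KO than of the WT members, though 81 of 83 KO and 69 of 69 WT members held a UMI of it. Prg4 was at 0, 19.7 and 122 UMIs per 10000 (lowest, median, highest) in KO members, against 0.690, 28.5 and 71.9 in WT members, and at a median of 102 and 68.2 in KO and WT class II low cells. Under 10 UMIs per 10000 of Prg4, a limit set after the values were seen, lay 33 of 83 KO members (39.8%, exact 95% interval 29.2 to 51.1%) and 5 of 69 WT members (7.25%, 2.39 to 16.1%). The cells are spread along a range and not split by a gap: 19 KO and 16 WT members had between 5 and 20. Barcodes with 3 or more B cell UMIs had Prg4 medians of 4.46 in KO and 1.55 in WT. Of these barcodes, 33 of 51 in KO and 28 of 41 in WT also held a UMI of C1qa. Whether their Prg4 came from free RNA, doublets or macrophages among them was not tested. The part of free RNA in the members' Prg4 was not tested either.

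**Figure D1:**
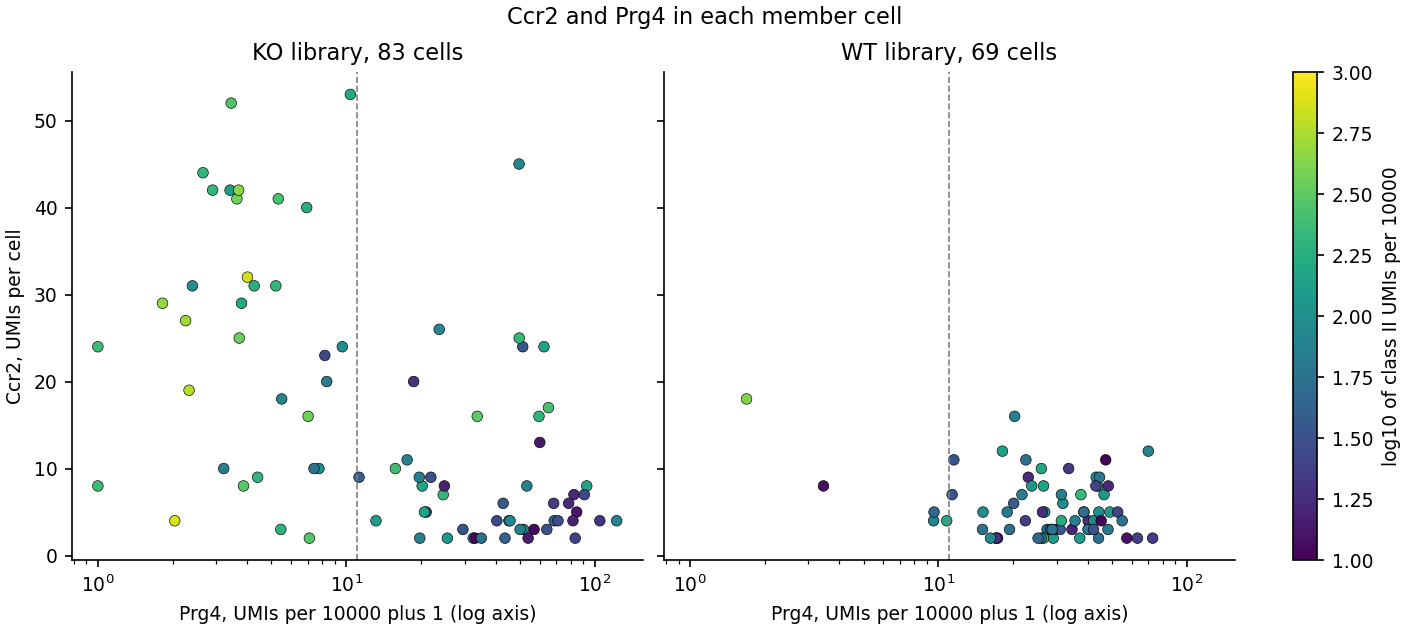
Each point is 1 member cell, 83 in the KO library (left) and 69 in the WT library (right), with Prg4 in UMIs per 10000 plus 1 across (log axis) and Ccr2 in UMIs per cell upwards; colour gives the log10 of the class II sum and the dashed line marks 10 Prg4 UMIs per 10000. The upper left, with little Prg4 and 20 or more Ccr2 UMIs, holds 21 KO cells and 0 WT cells.

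The 33 KO members with little Prg4 had more Ccr2 and class II than the other KO members. Their Ccr2 had a median of 25 UMIs, against 5.5 in the other 50 KO members, and their class II sum a median of 209 UMIs per 10000, against 50.6. Cd226, an adhesion receptor used to mark small peritoneal macrophages, had a UMI in 20 of the 33 and in 6 of the 50. Fcrls, an Fc receptor-like gene, had one in 18 of the 33 and in 7 of the 50, and Gata6 in 3 of the 33 and in 33 of the 50. The 33 include the 6 KO members with under 10 C1q UMIs per 10000, given above. With each cell thinned to 2000 UMIs, Cd226 was seen in 7.23% of KO and 1.47% of WT members, against 2.17% of KO and 0% of WT barcodes with B cell transcripts, and Fcrls in 15.7% of KO and 2.94% of WT members, against 2.17% and 0%. The cells with little Prg4 had a median of 12188 UMIs, against 20294.5 in the other KO members, and all 3 KO members over 60000 UMIs had 10 or more Prg4 UMIs per 10000. Of the 64 WT members with more Prg4, 39 had a Gata6 UMI and 1 had a Cd226 UMI.

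The Folr2 and Lyve1 limit bore on these counts. Across all barcodes kept that were not B cells, 64 of 6309 in KO (1.01%, 0.782 to 1.29%) and 33 of 6218 in WT (0.531%, 0.366 to 0.745%) had under 10 Prg4 UMIs per 10000. Of these, 44 in KO and 16 in WT met the class II and Ccr2 conditions, and 11 in KO and 11 in WT were then left out for 2 or more UMIs of Folr2 or Lyve1. The counts of cells with little Prg4 were thus 44 in KO and 16 in WT before that limit and 33 in KO and 5 in WT after it.

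Retnla, the secreted resistin-like molecule induced by interleukin-4 and abundant in small peritoneal macrophages, was high in some members and missing in others. It was at 0, 8.06 and 536 UMIs per 10000 (lowest, median, highest) in KO members, against 0, 29.4 and 674 in WT members. No Retnla UMI was seen in 23 KO and 6 WT members. Of the KO members with little Prg4, 15 of 33 had 100 or more per 10000 and 12 of 33 had none, while 3 of the other 50 KO members had 100 or more. Summed over cells, Retnla had 5544 CPM in KO members and 6540 in WT members, against 107 in KO and 698 in WT class II low cells. With each cell thinned to 2000 UMIs, 57.8% of KO and 76.5% of WT members held a Retnla UMI (72.3% and 91.3% without thinning), against 6 of 46 KO and 8 of 40 WT barcodes with B cell transcripts (23.5% and 51.2% without thinning, at median depths of 7186 and 5703 UMIs).

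**Figure D2:**
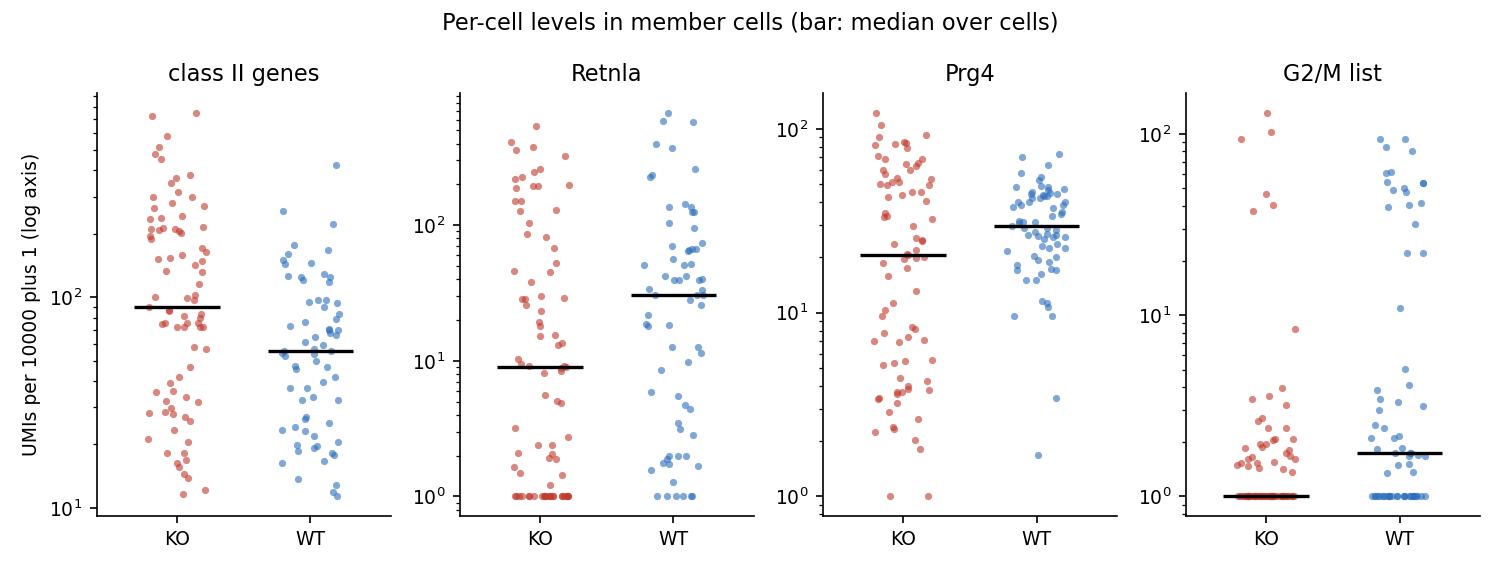
UMIs per 10000 plus 1 on a log axis in each of 83 KO and 69 WT member cells, for the 4 class II genes of the rule, Retnla, Prg4 and the summed G2/M list; bars are medians over cells. KO members reach lower Prg4 (median 19.7 in KO and 28.5 in WT) and fewer of them are high in G2/M genes, 6 in KO and 18 in WT.

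Cells rich in mitotic transcripts made up a larger share of the members than of the class II low cells, and of WT than of KO members. At 10 or more UMIs per 10000 of the G2/M list, whose genes build and run the mitotic spindle, were 6 of 83 KO members (7.23%, 2.70 to 15.1%) and 18 of 69 WT members (26.1%, 16.3 to 38.1%). In class II low cells the shares were 1.62% in KO and 2.87% in WT, and in class II high cells with no Ccr2 UMI, chosen by the same limits otherwise, 3.30% in KO and 4.46% in WT. A limit of 2 Ccr2 UMIs is reached more easily in deep cells. Members had medians of 16643 UMIs in KO and 17059 in WT, against 15631 and 13907.5 in the cells with no Ccr2 UMI. The part of depth in these shares was not tested. Mki67, the proliferation antigen, had 144 CPM in KO members and 166 in WT members, and 23.5 and 26.1 in KO and WT class II low cells. One KO cell gave 51.7% of the KO members' Mki67 UMIs, while the top WT cell gave 12.9%. Only 1 KO and 1 WT member lay between 5 and 20 UMIs per 10000, so the limit divided few close cells. Of the 33 KO members with little Prg4, 0 were over the limit.

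Clusters made within each library were left without a cell type name. In KO, 30 cells were led by Cd226, Retnla, Fcrls, Clec12a and Cx3cr1, with a median of 28 Ccr2 UMIs and 2.89 Prg4 UMIs per 10000, and 28 of them were under the Prg4 limit. The other KO clusters were 34 cells led by Tgfb2, Cxcl13 and Saa3, with a Prg4 median of 52.7, and 19 cells led by Top2a and Mki67, of which 6 were over the G2/M limit. In WT, 50 cells were led by Ccl7, Cxcl1 and Cxcl13, and 19 by Birc5, Pclaf and Stmn1, 17 of them over the G2/M limit. Neither WT cluster had Cd226 or Fcrls among its 10 leading genes.

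The members had less of Prg4 and Gata6, and more Retnla, than the class II high cells that met every other condition but had no Ccr2 UMI. Those were 303 cells in KO and 538 in WT. Prg4 had a median of 19.7 UMIs per 10000 in KO members and 77.4 in KO cells without Ccr2, and of 28.5 in WT members and 55.6 in WT cells without Ccr2. Retnla had a median of 8.06 in KO members and 0.863 in KO cells without Ccr2, and of 29.4 and 1.51 in WT. Under 10 Prg4 UMIs per 10000 were 39.8% of KO members and 1.32% of the KO cells without Ccr2, and 7.25% and 0.372% in WT. Gata6 stood at 63.6 CPM in KO members and 135 in KO cells without Ccr2, and at 64.5 and 133 CPM in WT. Clec4a2, a C-type lectin, stood at 95.1 CPM in KO members and 19.3 in KO cells without Ccr2, and at 106 and 16.2 CPM in WT. Both groups were cut from class II high cells by Ccr2, so these values are a description.

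Set against class II low cells of the same library, members had less of the large macrophage transcripts. Of 4939 genes reaching 20 CPM in the higher group of each library, 111 (2.25%) were at least 2-fold higher in members in both and 59 (1.19%) at least 2-fold lower in both, while trimmed mean scaling counted 77 higher and 97 lower. Within KO, 318 of 5620 genes were 2-fold higher (5.66%) and 116 lower (2.06%), and within WT 256 of 5189 higher (4.93%) and 101 lower (1.95%). The median gene was 0.14 higher in KO members and 0.18 higher in WT members on the log2 scale, with 1 added to CPM in this and every later ratio. Gata6, the transcription factor of the large cells, had 63.6 CPM in KO members and 174 in KO class II low cells, and 64.5 CPM in WT members and 154 in WT class II low cells. Timd4, which encodes the phosphatidylserine receptor TIM-4, had 21.2 CPM in KO members and 132 in class II low cells, and 30.6 and 171 in WT. On thinned cells a Gata6 UMI was seen in 7.23% of KO members (2.70 to 15.1%) and 15.2% of KO barcodes with B cell transcripts (6.34 to 28.9%). In WT the shares were 14.7% of members and 2.50% of such barcodes. Without thinning they were 43.4% of KO members and 33.3% of KO barcodes, and 59.4% and 12.2% in WT. Macrophage transcripts were present in these barcodes too, as given above, so the comparison cannot show whether KO members expressed Gata6.

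Of the 25 genes of the large macrophage list, 23 were measured at a mean of 5 CPM. In KO, 18 were at least 1.5-fold lower in members and 1 higher, with a median log2 ratio of -1.37, and in WT 16 were lower and 0 higher, with a median of -1.20. Over all genes measured, 6.17% were 1.5-fold lower and 18.0% higher in KO, and 5.63% lower and 16.1% higher in WT, with medians of 0.16 in KO and 0.17 in WT. The 1 gene higher in KO members was Apoc1, an apolipoprotein, at 29.1 CPM in KO members and 7.37 in class II low cells. Fn1, fibronectin, was close in both groups, at 8870 CPM in KO members and 8225 in class II low cells, and 7834 and 7493 in WT. Prg4 had 3970 CPM in KO members and 10276 in class II low cells, and 3109 and 7152 in WT.

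The 12 genes lowest in members over class II low cells, ranked by the smaller of the KO and WT differences, were Timd4, Garnl3, Ptgis, Vmn2r26, Tgfb2, Wnt2, Nedd4, Ltbp1, Cxcl13, Vsig4, Aspa and Cald1. Of these, Timd4, Garnl3, Tgfb2, Ltbp1, Cxcl13 and Vsig4 are on the large macrophage list. Tgfb2, a transforming growth factor, was 1.92 lower on the log2 scale in KO members (130.9 CPM in members and 499.5 in class II low cells) and 2.91 lower in WT members (52.95 and 403.5 CPM). Vsig4, a complement receptor, was 1.71 lower in KO members and 3.17 lower in WT members. Vmn2r26 belongs to a large family of vomeronasal receptor genes whose copies can share reads, so its value is uncertain.

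Many small macrophage transcripts were higher in members. Of 15 genes, 14 were measured in KO and 11 in WT, and 11 in KO and 5 in WT were at least 1.5-fold higher in members than in class II low cells, beside 18.0% and 16.1% of all genes, and 0 were lower. The genes measured in KO alone reached the 5 CPM mean through the members, where they were high. Over the 11 genes measured in both libraries the median log2 ratio was 1.97 in KO and 0.58 in WT, with 8 higher in KO and 5 in WT. Retnla was one of the genes that gave the set its label. Mrc1, the mannose receptor, had 143 CPM in KO members and 2.08 in class II low cells, and 61.2 and 7.28 in WT. Fcrls had 92.1 CPM in KO members and 0.261 in class II low cells, and 37.2 and 0.525 in WT. F13a1, coagulation factor XIII A, had 246 CPM in KO members and 41.5 in class II low cells, and 390 and 164 in WT. Lsp1, an actin-binding protein of leukocytes, was close in both, with 632 CPM in KO members and 447 in class II low cells, and 400 and 316 in WT.

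**Figure D3:**
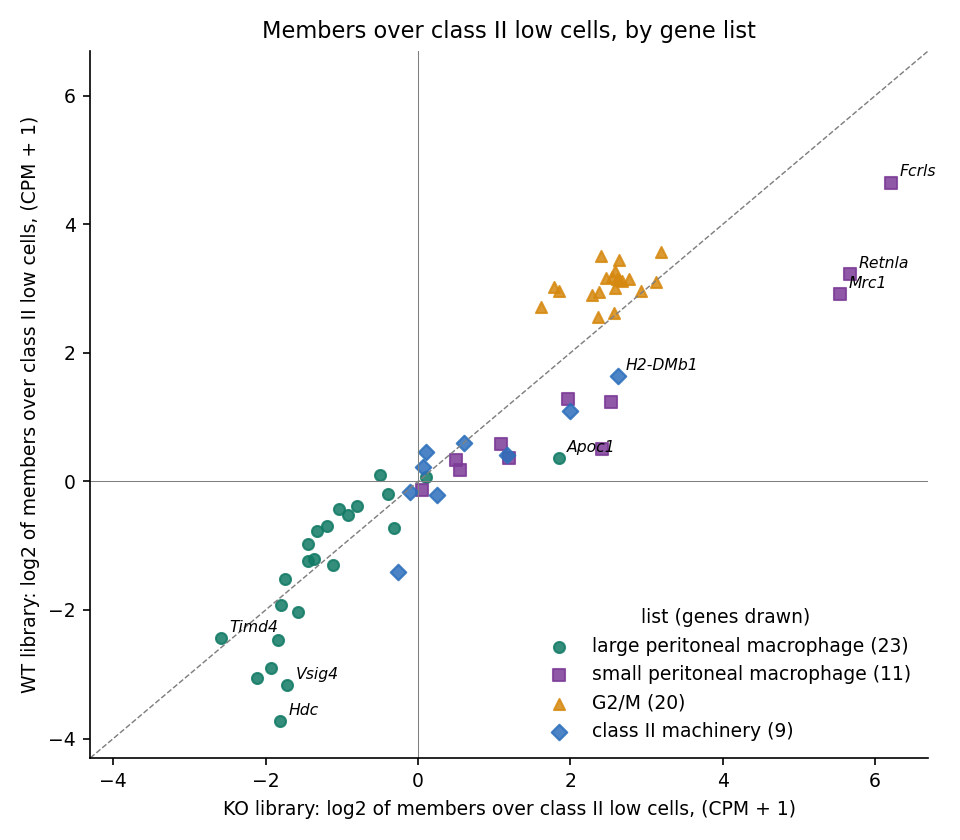
Log2 ratio of members over class II low cells, KO library across and WT library up, for genes of 4 lists with a mean of 5 CPM or more in both libraries; the dashed line marks equal ratios. Most large macrophage genes lie at the lower left (medians -1.37 in KO and -1.20 in WT), G2/M genes at the upper right (2.57 and 3.11), and small macrophage genes to the right (1.97 and 0.58 over the 11 genes measured in both).

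The 12 genes highest in members by the same rule were Clec4a2, Retnla, Cenpf, Mrc1, Emb, Cenpe, Coro1a, Prc1, Nusap1, Top2a, Mki67 and Birc5. Of these, Cenpf, Cenpe, Prc1, Nusap1, Top2a, Mki67 and Birc5 act in chromosome segregation or are markers of dividing cells. For these dividing-cell genes, the top KO cell gave between 26.7% (Birc5) and 51.7% (Mki67) of the KO members' UMIs. The top WT cell gave between 9.86% (Cenpe) and 18.6% (Nusap1) of those of the WT members. Over all genes, 18.0% in KO and 16.1% in WT were at least 1.5-fold higher in members. All 20 genes of the G2/M list were at least 1.5-fold higher in members of both libraries, with medians of 2.57 in KO and 3.11 in WT. Without the members over the G2/M limit, 77 KO and 51 WT cells remained, and the medians were -1.16 in KO and -0.32 in WT. Coro1a, which encodes the leukocyte actin regulator coronin 1A, was 2.71 higher in KO members (213.8 CPM in members and 31.75 in class II low cells) and 2.68 higher in WT members (86.05 and 12.6 CPM). Emb, the adhesion glycoprotein embigin, was 2.84 higher in KO members and 3.24 higher in WT members. Clec4a2 had 157 UMIs in 44 KO members and 128 UMIs in 45 WT members, and belongs to a family with close copies whose reads may be shared.

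Of 26 Toll-like receptor and lectin genes, 22 were measured in KO and 21 in WT. In members, 14 of them in KO and 9 in WT were at least 1.5-fold higher (18.0% and 16.1% of all genes) and 3 in KO and 2 in WT lower (6.17% and 5.63%). A gene could reach the 5 CPM mean through the members alone, where it was high. Over the 21 genes measured in both libraries, 13 in KO and 9 in WT were higher and 3 in KO and 2 in WT lower. The genes of this paragraph are examples chosen after their values were seen, and the phagocytic receptor genes Timd4 and Vsig4, given above, were lower in members. Clec4a1 had 133 CPM in KO members and 13.5 in class II low cells, and 86.05 and 17.5 in WT, and Clec4b1 had 43.0 CPM in KO members and 0.198 in class II low cells, and 14.9 and 0.578 in WT. Axl, a receptor kinase for the uptake of dying cells, had 56.3 CPM in KO members and 1.48 in class II low cells, and 29.8 and 1.78 in WT. Mmp9, a gelatinase, had 30.3 CPM in KO members and 2.69 in class II low cells, and 43.9 and 7.55 in WT. Tmsb10, an actin-sequestering peptide, had 1093 CPM in KO members and 213.5 in class II low cells, and 817 and 192 in WT. C4b, of the complement system, was lower in members, with 360 CPM in KO members and 894 in class II low cells, and 247 and 769 in WT.

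The class II pathway beyond the rule's genes differed gene by gene. The peptide-loading chaperone subunits stood out: H2-DMa had 319 CPM in KO members and 78.9 in class II low cells, and 228 and 106 in WT, and H2-DMb1, whose promoter is printed above, had 215 CPM in KO members and 34.2 in class II low cells, and 101 and 31.7 in WT. Ciita had 56.9 CPM in KO members and 0.573 in class II low cells, and 8.27 and 0.296 in WT. The subunits of the RFX complex, which binds the X box, were low in members and class II low cells alike, with Rfx5 at 6.66 CPM in KO members and 8.27 in WT members and Rfxap at 26.7 and 24.8. Ctss, the protease that trims the invariant chain, had 1278 CPM in KO members and 1240 in WT members. Of 14 genes of the machinery list, 10 were measured in KO and 9 in WT, of which 5 in KO and 3 in WT were at least 1.5-fold higher in members (18.0% and 16.1% of all genes) and 0 in KO and 1 in WT lower (6.17% and 5.63%). The 1 lower gene was Lgmn, a lysosomal protease, at 96.0 CPM in WT members and 257 in WT class II low cells. These genes are co-regulated with those of the rule, so the direction of H2-DMa, H2-DMb1 and Ciita was in part set by the choice of cells.

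Between genotypes, the KO members had more Ciita, the class II coactivator gene, and more Ltb4r1 and Pla2g7, and less of many inflammatory chemokine genes than the WT members. Among 5688 genes that reached 20 CPM in KO or WT members, KO was at least 2-fold higher in 342 (6.01%) and at least 2-fold lower in 154 (2.71%), and the median gene was 0.18 higher in KO. Trimmed mean scaling, which moves each ratio by 0.18, counted 206 higher and 245 lower, so that 45.7% of the counted genes were higher, against 69.0% with CPM. In class II low cells, summed over many more cells and so with less counting noise, 87 of 5082 genes were higher (1.71%) and 105 lower (2.07%), with the median gene 0.21 higher.

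**Figure D4:**
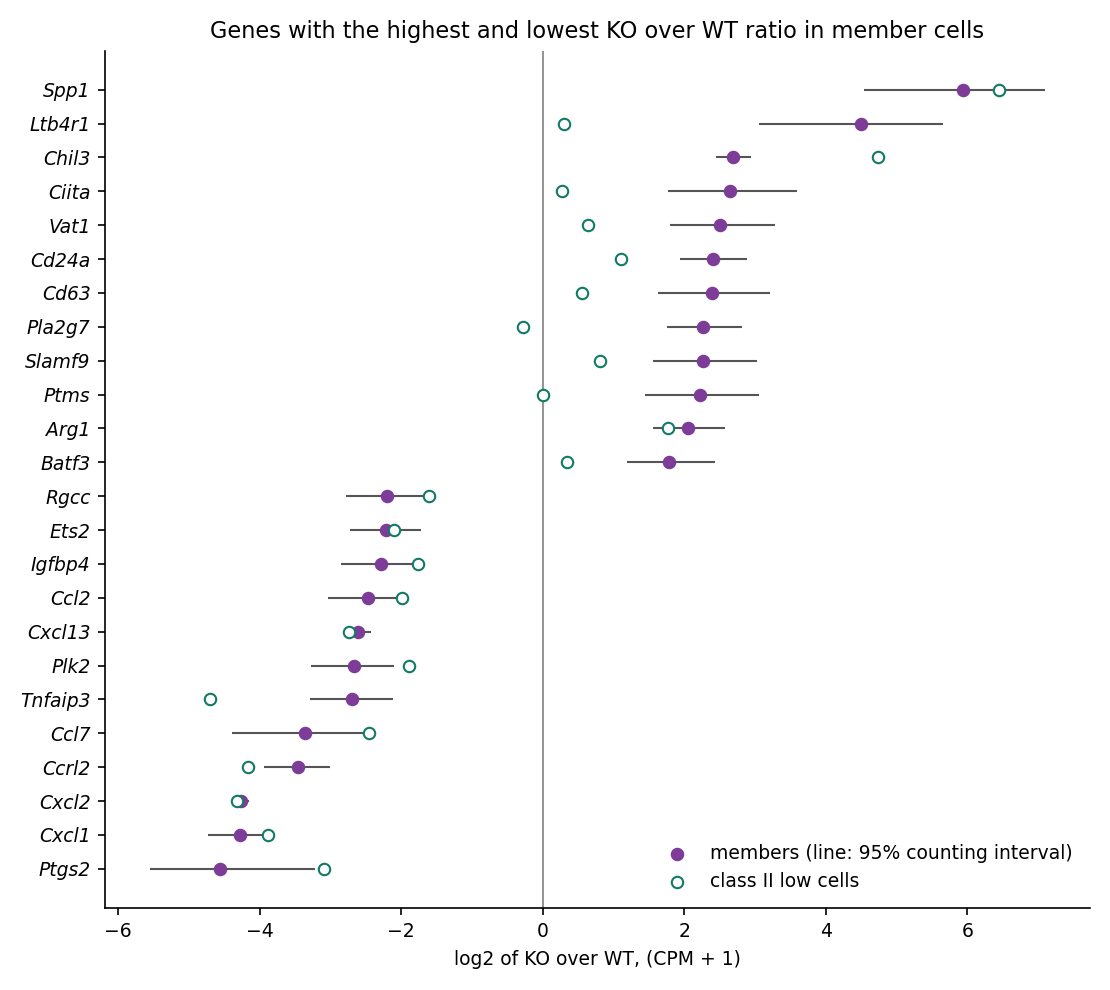
Log2 ratio of KO over WT in member cells for 12 genes at either end of the ranking (filled, with 95% counting intervals) and for the same genes in class II low cells (open). For Cxcl2 the filled point, at -4.27 in members, lies near the open one, at -4.32 in class II low cells, while for Pla2g7 the filled point is at 2.27 and the open one at -0.28. Ltb4r1 and Ciita had under 1 CPM in class II low cells of both libraries, so their open points lie near 0 through the 1 CPM added.

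The 12 genes highest in KO members were Spp1, Ltb4r1, Chil3, Ciita, Vat1, Cd24a, Cd63, Pla2g7, Slamf9, Ptms, Arg1 and Batf3. Ltb4r1, the high-affinity receptor for leukotriene B4, had 97 UMIs in 34 of 83 KO members (58.8 CPM) and 2 UMIs in 2 of 69 WT members (1.65 CPM), a log2 ratio of 4.49 (interval 3.06 to 5.66), with 0.281 CPM in KO and 0.0404 CPM in WT class II low cells. Ciita had 94 UMIs in 41 KO members (56.9 CPM) and 10 UMIs in 7 WT members (8.27 CPM), a ratio of 2.64 (1.77 to 3.60). Pla2g7, the hydrolase of platelet-activating factor, had 139 CPM in KO members and 28.1 in WT members, a ratio of 2.27, but 95.8 CPM in KO and 116 in WT class II low cells. Slamf9, Ptms and Batf3 had ratios of 2.27, 2.22 and 1.79 in members, and 0.81, 0.01 and 0.34 in class II low cells. Batf3 is also on the dendritic cell list. Without the members holding a UMI of Flt3, Zbtb46 or Cd209a, 79 KO and 66 WT cells remained. The ratio of Batf3 was then 1.69, that of Ciita 2.52 and that of Ltb4r1 4.33. This step left out few cells and kept most of the KO members with little C1q. It therefore cannot show the part of dendritic transcripts in these ratios. Ciita is used by B cells too, and without members holding a UMI of the 3 B cell genes its ratio was 2.99.

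Spp1, Chil3, Cd24a and Arg1 were also higher in KO class II low cells. Spp1, which encodes osteopontin, had 268 UMIs in 29 KO members (162 CPM) and 2 UMIs in 1 WT member (1.65 CPM), a ratio of 5.94 (4.53 to 7.10), and 625 CPM in KO against 6.15 in WT class II low cells. One KO cell gave 30.2% of the KO members' Spp1 UMIs. Chil3, a chitinase-like lectin whose reads may be shared with the near-identical Chil4, had 786 CPM in KO members and 121 in WT members, and 372 and 12.99 in KO and WT class II low cells. Arg1, arginase 1, had 130 CPM in KO members and 30.6 in WT members, and 220 and 63.7 in class II low cells. On thinned cells a Spp1 UMI was seen in 10.8% of KO and 0% of WT members. That was at or below the 17.4% of KO and 0% of WT barcodes with B cell transcripts. Without thinning the shares were 34.9% of KO and 1.45% of WT members, and 29.4% of KO and 0% of WT barcodes. Spp1 was thus not read as expressed across the KO members. These are shares of cells and not levels, so they do not bear on the 1 cell with 30.2% of the UMIs. On thinned cells Chil3 was seen in 32.5% of KO and 16.2% of WT members, against 21.7% of KO and 0% of WT barcodes with B cell transcripts. Among barcodes with B cell transcripts, Spp1 and Chil3 were thus seen in more of those of the KO library. Whether this was free RNA or doublets was not tested, nor was its part in the members' values.

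The 12 genes lowest in KO members were Ptgs2, Cxcl1, Cxcl2, Ccrl2, Ccl7, Tnfaip3, Plk2, Cxcl13, Ccl2, Igfbp4, Ets2 and Rgcc, and each was at least 2-fold lower in KO class II low cells too. Cxcl2, a neutrophil chemokine, had 354 CPM in KO members and 6838 in WT members, a ratio of -4.27, and 421 CPM in KO and 8422 in WT class II low cells. It was seen in all 69 WT members and in 50 of 83 KO members. Cxcl1, its close relative, had 26.05 CPM in KO members and 522 in WT members. Ptgs2, the inducible cyclooxygenase, had 2 UMIs in KO members and 62 in WT members, a ratio of -4.56 (-5.55 to -3.21). Tnfaip3, which encodes the NF-kB inhibitor A20, had 17.0 CPM in KO members and 115 in WT members, a ratio of -2.69, and 4.27 CPM in KO and 136 in WT class II low cells, a ratio of -4.70. Cxcl13, a B cell chemokine of large macrophages, had 174 CPM in KO members and 1074 in WT members. On thinned cells Cxcl2 was seen in 31.3% of KO and 97.1% of WT members, and in 19.6% of KO and 62.5% of WT barcodes with B cell transcripts, and the part of free RNA in these values was not tested either.

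Of 26 inflammatory cytokine and chemokine genes, 17 were measured in members, with 12 at least 1.5-fold lower in KO and 2 higher, at a median of -1.99, where 8.37% of all 8922 genes measured were lower and 22.3% higher. In class II low cells 13 of 16 were lower and 0 higher, at a median of -2.22, beside 3.53% lower and 11.6% higher over all genes. The 2 genes higher in KO members were Ccl6 and Ccl9, constitutive chemokines of myeloid cells: Ccl6 had 4047 CPM in KO members and 2696 in WT members, and Ccl9 had 909 and 544. Il1b, interleukin 1 beta, was close in members, at 52.1 CPM in KO and 50.5 in WT, but stood at 8.99 CPM in KO and 35.2 in WT class II low cells. Of 24 immediate early genes, 23 were measured, and 10 were lower and 1 higher in KO members, at a median of -0.57, with the same median in class II low cells. Atf3 had 95.1 CPM in KO members and 321 in WT members, and Dusp1, a phosphatase of MAP kinases, 815 and 1836. The mitochondrial share moved with genotype as well, as given above, and its part in these values was not tested.

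Among NF-kB feedback genes, 6 of 20 were at least 1.5-fold lower in KO members and 4 higher, beside 8.37% lower and 22.3% higher over all genes, so the share higher was near that of all genes. Nfkbia, the inhibitor that holds NF-kB in the cytoplasm, had 349.5 CPM in KO members and 1119 in WT members, and Nfkbiz had 59.4 and 199. Tnip3, which binds A20 and is also on the dendritic cell list, was higher, with 44.2 CPM in KO members and 3.31 in WT members, at 0.677 and 1.59 CPM in KO and WT class II low cells. Complement C1q genes were lower in KO members as in class II low cells, with C1qc at 1761 CPM in KO members and 3312 in WT members, and 2058 and 4262 in class II low cells.

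**Figure D5:**
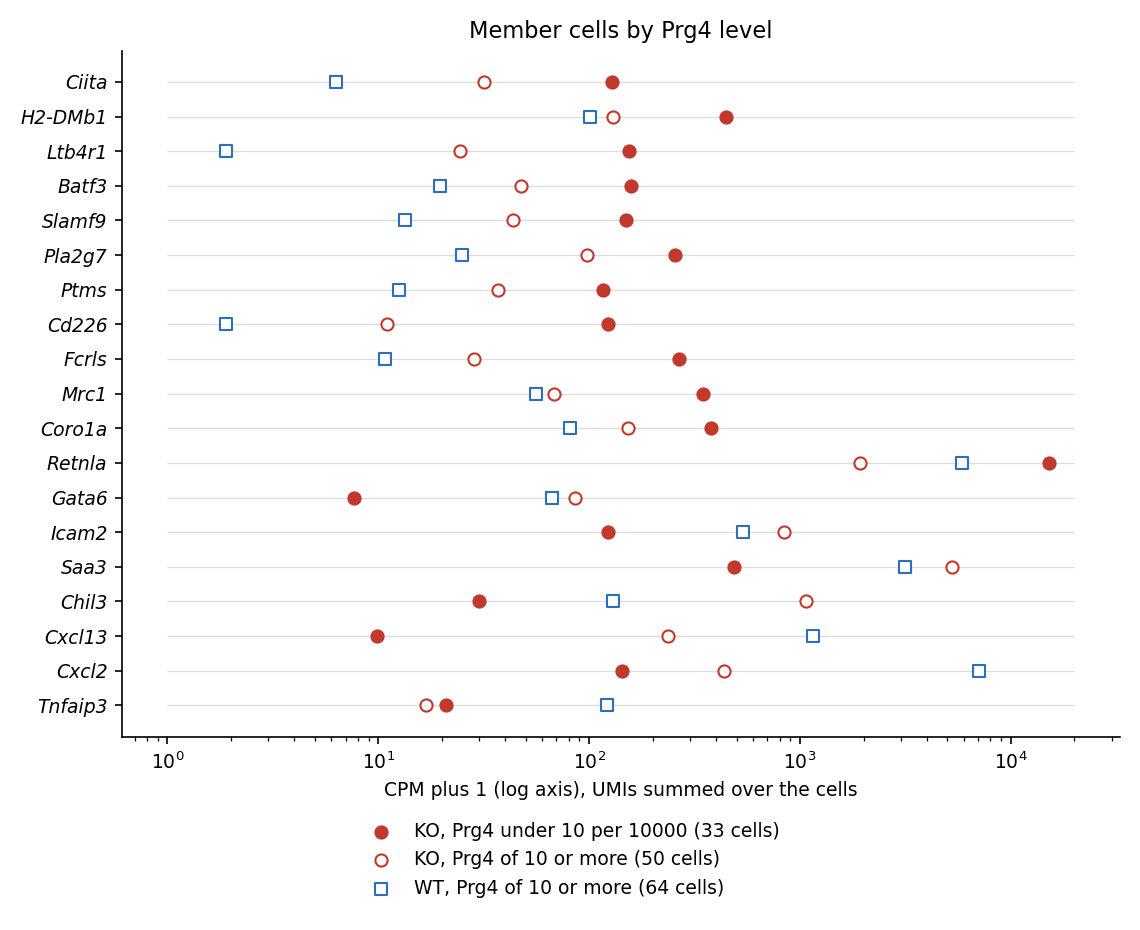
CPM plus 1 on a log axis, from UMIs summed over KO members with under 10 Prg4 UMIs per 10000 (33 cells), KO members with more (50 cells) and WT members with more (64 cells), for 19 genes chosen after their values were seen; the 5 WT members with less are not drawn. For Ciita, Ltb4r1 and Batf3 the KO cells with more Prg4 lie between the other groups, and for Cxcl2 and Tnfaip3 both KO groups lie below WT.

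Several of these values differed within the set when it was split by Prg4, at a limit set after the values were seen. Ciita had 127 CPM in the KO members with little Prg4, 30.8 in the other KO members and 5.33 in the WT members with more Prg4. Ltb4r1 had 153, 23.3 and 0.888 CPM in the same 3 groups, Batf3 158, 46.6 and 18.7, and Slamf9 149, 42.5 and 12.4. Restricted to members with 10 or more Prg4 UMIs per 10000, the log2 ratio of KO over WT was 2.33 for Ciita, 3.69 for Ltb4r1, 1.97 for Pla2g7 and 1.28 for Batf3, so these stayed 2-fold higher in KO. Among those members H2-Aa had 1253 CPM in KO and 1152 in WT, H2-Ab1 1001 in KO and 1056 in WT, Cd74 3598 in both, and H2-Eb1 894 in KO and 658 in WT. In the KO members with little Prg4, H2-Aa had 4687 CPM and Cd74 13065. Cx3cr1, the fractalkine receptor, had 82.2 CPM in the KO members with little Prg4, 4.16 in the other KO members and 0.888 in the WT members with more Prg4. Cxcl2 had 142, 434 and 7045 CPM in these groups, low in both KO groups.

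The 5 WT members with little Prg4 gave 83141 UMIs in all, and 1 of them held 31 of their 34 Fcrls UMIs and 978 of their 1329 Retnla UMIs. The KO members with little Prg4 had 264 CPM of Fcrls, against 409 in the 5 WT members and 43.7 in the 4 without that cell. Retnla was at 15231 CPM in those KO members, against 15985 in the 5 WT members and 5114 in the 4. Cxcl2 was at 142 CPM in those KO members, against 4041 in the 5 WT members and 3293 in the 4. The highest WT class II sum, 425 UMIs per 10000, and the highest WT Ccr2 count, 18, were both in that 1 cell.

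Small macrophage genes as a list were higher in KO members, 9 of 14 by at least 1.5-fold and 2 lower, at a median of 0.97, beside 22.3% higher and 8.37% lower over all genes. The 2 lower were F13a1, at 246 CPM in KO members and 390 in WT members, and Tgfbi, at 170 and 343. With 10 or more Prg4 UMIs per 10000 the median was 0.45. Genes of this list were measured at a mean of 5 CPM over KO and WT members. Some could therefore enter through the KO members alone, where they were high, which bears on the count. In class II low cells 9 of the 15 genes were measured, with 1 higher and 5 lower in KO (11.6% and 3.53% of all genes), at a median of -0.63. Large macrophage genes were split, 5 higher and 4 lower of 23, with the share higher near the 22.3% of all genes and the share lower above the 8.37%, at a median of 0.18, which is that of all genes. Gata6 was close at 63.6 CPM in KO and 64.5 in WT members, though its shares of cells could not show whether KO members expressed it, as given above. Thbs1, thrombospondin 1, was lower, with 770 CPM in KO members and 2494 in WT members, and Cd9, a tetraspanin, higher, with 465 and 223.

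G2/M genes were lower in KO members, 13 of 20 by at least 1.5-fold and 0 higher, beside 8.37% lower and 22.3% higher over all genes, at a median of -0.85, and -0.21 in class II low cells. The median was -2.72 without members holding a B cell UMI and -0.40 among members with 10 or more Prg4 UMIs per 10000, the second of which was chosen after seeing the data. G1/S genes, of DNA replication, had a median of -0.54 in members and 0.78 in class II low cells, where 9 of 17 were higher in KO (11.6% of all genes) and 0 lower (3.53%). Birc5, survivin, had 70.3 CPM in KO members and 180 in WT members, and Top2a, topoisomerase 2 alpha, 139 and 218.

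Of 16 chemoattractant receptor genes, 14 were measured, of which 3 were at least 1.5-fold higher (22.3% of all genes) and 5 lower (8.37%) in KO members. Their log2 ratios ran from -3.46 to 4.49. In class II low cells 12 were measured, with 0 higher (11.6%) and 5 lower (3.53%) in KO. Cxcr4, the receptor for CXCL12, was lower in KO members, at 5.45 CPM against 27.3 in WT members. Of 20 lipid handling genes, 17 were measured, of which 7 were at least 1.5-fold higher (22.3% of all genes) and 3 lower (8.37%) in KO members. Cd36, a scavenger receptor for oxidised lipid, had 575 CPM in KO members and 294.5 in WT members, with 206 and 222 in class II low cells. Lpl, lipoprotein lipase, had 554 CPM in KO members and 341 in WT members, with 187 and 252 in class II low cells. Apoe was lower, with 8254 CPM in KO members and 17206 in WT members.

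Genes of alternative activation, the state that interleukin-4 induces, differed in both directions, with 7 of 13 measured at least 1.5-fold higher in KO members (22.3% of all genes) and 3 lower (8.37%), at a median of 0.73. In class II low cells 2 of 10 were higher (11.6%) and 5 lower (3.53%), at a median of -0.55. Chil3, Arg1 and Mrc1, described above, are among the 7, and the untested part of free RNA or doublets in Chil3 applies here too. Interferon-stimulated genes of the type I list were higher in KO members for 7 of 16 (22.3% of all genes) and lower for 2 (8.37%), at a median of 0.45. In class II low cells they were higher for 1 of 18, below the 11.6% of all genes, and lower for 0, at a median of 0.25. Parp14, an ADP-ribosyltransferase, had 65.4 CPM in KO members and 26.5 in WT members, and Isg15, a ubiquitin-like modifier, 21.2 and 9.10. Ifi211 was lower, at 6.66 CPM in KO members and 18.2 in WT members.

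Genes that accompany Folr2 and Lyve1 in tissue macrophages were lower in KO members, 7 of 9 measured by at least 1.5-fold (8.37% of all genes) and 1 higher (22.3%), at a median of -1.18. In class II low cells 8 of 8 were lower (3.53% of all genes), at a median of -1.40. Pf4, platelet factor 4, had 1213 CPM in KO members and 3506 in WT members, and 3478 and 9615 in class II low cells. Ccl24, an eosinophil chemokine, had 197 CPM in KO members and 535 in WT members, and 286 and 985 in class II low cells. Folr2 and Lyve1 themselves were capped by the rule and are not compared. The 1 gene higher was Cd163, a haemoglobin scavenger receptor, at 10.3 CPM in KO members and 4.14 in WT members.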

How the data were processed

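The members and the 35 gene lists were chosen with earlier results of these data known. The deposited values were raw UMI counts for each gene in each called barcode; per the file headers they came from Cell Ranger 6.1.2. The submitters' processing notes also list bcl2fastq, Seurat 4.1.0 and the mm9 assembly; all 55450 feature identifiers are in the GENCODE M21 annotation, and no coordinates come from the deposited files. Whether counting used strand is not given in the sources used here.

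Barcodes with 500 or more genes and at most 10% mitochondrial UMIs were kept. UMIs were summed per library over the members or class II low cells and scaled to CPM; summed cells are no replicates. Ratios are log2 of (CPM + 1) with exact conditional binomial 95% intervals. Genes reaching 20 CPM in the higher group were counted at 2-fold, and list genes with a mean of 5 CPM or more at 1.5-fold. A list gene could reach that mean through the group where it was high, which bears on all list counts. The rule for naming took the 12 highest and 12 lowest genes per comparison among those reaching 50 CPM (members over class II low by the smaller ratio of the 2 libraries), leaving out genes of the rule, mitochondrial, ribosomal, immunoglobulin, haemoglobin and sex-linked genes (Y-linked genes, Xist and the like) and unnamed models; genes on lists were also open to naming. Intervals of shares of cells are exact binomial, and a gene with no UMI in a group was taken as up to 3 UMIs. Scrublet's own threshold called 1 barcode per library (0.0157% in KO and 0.0160% in WT, below 0.5%), so doublets were ranked by score at 0.8% per 1000 barcodes and left out only as an alternative. Sub-clusters used 2000 variable genes, 15 components, 15 neighbours and Leiden at resolution 0.5. The ratio was tested on simulated data first.

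Tools were R 4.3.3 with edgeR 4.0.16 (trimmed mean scaling only) and Python 3.11.15 with scanpy 1.11.5, leidenalg 0.10.2, pandas 2.3.3, scipy 1.17.1, matplotlib 3.10.9 and numpy 2.4.6.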

Additional observations from a re-analysis of the deposited data

Results flagged for a closer look

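Among the genes named in the text, other than those of the rule and an immunoglobulin gene, and genes at least 2-fold apart in opposite directions, 17 had a KO over WT difference of one sign in member cells and of the other in class II low cells, with counting intervals on opposite sides of 0. Many of these genes were named after their values were seen, so the 17 are a listing and not a share. Of 4900 genes measured in both cell groups, 1 was at least 2-fold apart in opposite directions. Other genes of the table with such signs are not given, and the difference between the 2 cell groups was not tested. Log2 ratios in members are given first. Pla2g7 was at 2.27 in members and -0.28 in class II low cells. Mrc1, the mannose receptor, was at 1.21 in members and -1.42 in class II low cells, where it had 2.08 CPM in KO and 7.28 in WT. Marcks, a substrate of protein kinase C chosen after its values were seen, was at 1.002 in members (155 CPM in KO and 76.9 in WT) and -1.28 in class II low cells (12.1 and 30.8). Vsig4 was at 0.85 in members and -0.60 in class II low cells. Wnt2 was at 1.49 in members, from 26 UMIs in KO and 6 in WT, and -0.24 in class II low cells, and Ltbp1 at 0.44 and -0.19.

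In the same order, H2-DMa was at 0.48 and -0.42, Lgmn at 0.94 and -0.20, Csf1r at 0.30 and -0.12, Cd36 at 0.96 and -0.11, Lpl at 0.70 and -0.43, Ccl9 at 0.74 and -0.43, and Clec4a1 at 0.62 and -0.35. Clec12a was at 0.99 and -0.81, with 1.58 CPM in KO and 3.54 in WT class II low cells. For Tnip3 (3.39 and -0.63), Clec4b1 (1.47 and -0.40) and Fcrls (1.28 and -0.27), class II low cells of both libraries had under 2 CPM, so that the 1 CPM added shrinks the second ratio.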

How the results depend on the processing

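No paired analysis was possible because each genotype had 1 library. Of 90 counts and shares recomputed, 68 stayed close to the values reported. The WT share of members was 1.69% with 1 Ccr2 UMI allowed and 0.831% with no Folr2 or Lyve1 UMI. Genes 2-fold higher and lower in KO members numbered 926 and 375 with barcodes thinned to 8000 UMIs, 206 and 245 with trimmed mean scaling, 197 and 254 with median-of-ratios scaling, 134 and 82 at 50 CPM, 969 and 345 at 5 CPM, and 806 and 310 for Ccr2 of 8 or more UMIs; equal weight per cell gave 546 higher. Genes higher in members than in class II low cells in both libraries numbered 62 with no B cell UMI, 46 at 50 CPM, 256 at 5 CPM and 66 without members over the G2/M limit; those lower numbered 97 with trimmed mean scaling, 31 at 50 CPM and 121 at 5 CPM. The Prg4, G2/M and Ccr2 limits and the removal of the top cell were chosen after seeing the data.

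Without the members over the G2/M limit, the direction over class II low cells turned for the G2/M list (-1.16 in KO, -0.32 in WT), Cenpf (-1.64, -3.81), Cenpe (-0.58, -0.19), Prc1 (-0.69, -0.63), Nusap1 (-1.52, -1.40), Top2a (-0.45, -0.91), Mki67 (-1.21, -0.32) and Birc5 (-1.16, -2.55), since the cells left out were chosen on those genes. Among the genes ranked highest and lowest in KO members, no KO over WT ratio turned. Those genes were chosen for their large ratios, so this check says little about smaller ones. The KO over WT ratios of the other genes in the text were not part of it. Counts of 69 to 83 cells limit single genes most: a gene with no UMI could be at up to 1.82 CPM in KO and 2.48 CPM in WT members. For the other values that moved, the cause was not tested.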
